A study of Mus musculus with 2 samples.

Results

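The forkhead transcription factor Foxp4 was mapped on the genome by ChIP-seq (sequencing of the DNA that an antibody to a bound protein pulls down) in cells taking the first steps toward beige adipocytes, fat cells of white depots that can burn fuel for heat. The results below concern 10 genes of lipid storage and of fat-derived hormones: the adipokine genes Retn, Lep and Adipoq, the lipid droplet gene Plin2, the triglyceride synthesis gene Gpam, the fatty acid synthesis genes Scd1 and Elovl6, and the fatty acid uptake genes Cd36, Lpl and Fabp4. A peak was taken as theirs when the peak file named the gene as nearest, or when the peak lay within 100 kb of the gene body on mm10, which gave 14 of the 3317 peaks. The genes were put together with these peaks known, so every count below is a description and none was tested. Of the 10 genes, 7 were named as nearest gene of a peak, which held for 9.11% of 21883 protein-coding genes. A peak within 100 kb of the gene body lay at 9 of the 10, against 27.7% of all protein-coding genes. Fabp4 had neither, and Adipoq and Lpl had peaks in their windows that were named for other genes. Elovl6 was the 1 gene of the 10 with a peak at its promoter.

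In the study 1 library came from Foxp4 ChIP and 1 from input DNA. Both used the stromal vascular fraction of C57BL/6 inguinal white fat, which is what remains of the tissue once mature adipocytes are removed and holds several cell types. Per the labels, the cells were cultured for 3 days with 20% serum and induced for 48 h with 10% serum, 50 nM T3, 5 µM troglitazone, 1 µM dexamethasone, 0.5 mM isobutylmethylxanthine and 5 µg/ml insulin. How many animals gave the cells is not stated in the labels. All peaks come from that single ChIP sample, without replicates, and the read depth behind them is unknown. The input library was not analysed here. A peak list holds no expression values, so the labelled cell type was not checked against markers, and whether the genes were active in these cells was not measured.

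White fat cells store energy as triglyceride in a lipid droplet. Fatty acids reach the cell from circulating lipoproteins through lipoprotein lipase and the transporter CD36, or are made inside it by synthesis, elongation and desaturation, and are then joined to glycerol phosphate in a chain of acylation steps. Perilipins coat the droplet and control the access of lipases. Leptin, adiponectin and, in mice, resistin are hormones that fat cells secrete, and several of these genes are classical targets of PPARγ, the receptor that troglitazone activates, and of C/EBP factors. Forkhead factors bind DNA at a short core whose best known form reads TGTTTAC.

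The sequence below is shown because the Elovl6 promoter was the 1 promoter of the 10 genes under a peak, so its bases are those the ChIP signal covered. The peak spans chr3:129532133-129532445, and the 250 bases before the annotated start site, from RefSeq on GRCm38.p6 (the assembly behind mm10), plus strand, lie wholly within it (chr3:129532136-129532385). Capitals mark a forkhead match.
Elovl6: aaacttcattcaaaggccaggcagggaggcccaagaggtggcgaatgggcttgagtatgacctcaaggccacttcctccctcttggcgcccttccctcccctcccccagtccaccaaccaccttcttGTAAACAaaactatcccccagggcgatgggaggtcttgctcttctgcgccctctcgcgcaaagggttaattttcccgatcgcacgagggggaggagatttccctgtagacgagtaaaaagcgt

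The capitals are TGTTTAC read on the other strand, at positions -123 to -117 from the start site, and their centre lay 23 bp from the midpoint of the peak. Promoter windows of 250 bases before to 50 after a start site were searched on both strands for 5 forkhead forms: TGTTTAC, its variant TGTTTGC, the form TATTTAC, the form TATTTGT and lastly TATTTAT. The form TGTTTAC occurred in 24.6% of the 65 windows that lay wholly inside a peak and in 3.65% of all 32851 windows. For TGTTTGC the shares were 3.08% inside a peak and 5.07% of all windows, and for the form TATTTAC they were 3.08% and 3.04%. The form TATTTGT occurred in 6.15% inside a peak and 3.63% of all, while for TATTTAT these were 6.15% and 5.60%. Any of the 5 forms occurred in 36.9% of the windows inside a peak and in 18.4% of all windows. The Elovl6 stretch of 250 bases shown above held 56.4% G and C and 11 CpG. Medians were 58.8% and 15 in the 65 windows inside a peak and 52.4% and 6 in all windows. The windows also take in 50 bases after the start site, so the CpG counts may not be over equal lengths. Promoter windows were found for 7 of the 10 genes (8 windows), and in those of the other 6 genes, none of which lay under a peak, no forkhead form was found. The Lep window held the C/EBP form TTGCNNAA at positions -55 to -48 and 1 of the Gpam windows held it at 9 to 16, a form present in 24.6% of the windows inside a peak and in 10.8% of all windows. These matches describe letters in the windows and do not show which sites were occupied.

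Each peak has a whole-number score from the authors' processing, on a scale that the labels and the file header do not state. It ran from 13 to 2569 over all peaks with a median of 65, and serves below to rank peaks within the list. Distances to a start site are those of the peak file, positive in the direction of transcription. Gaps run from the edge of the peak to the edge of the gene body in the RefSeq gene table of GRCm38.p6.

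**Figure D1:**
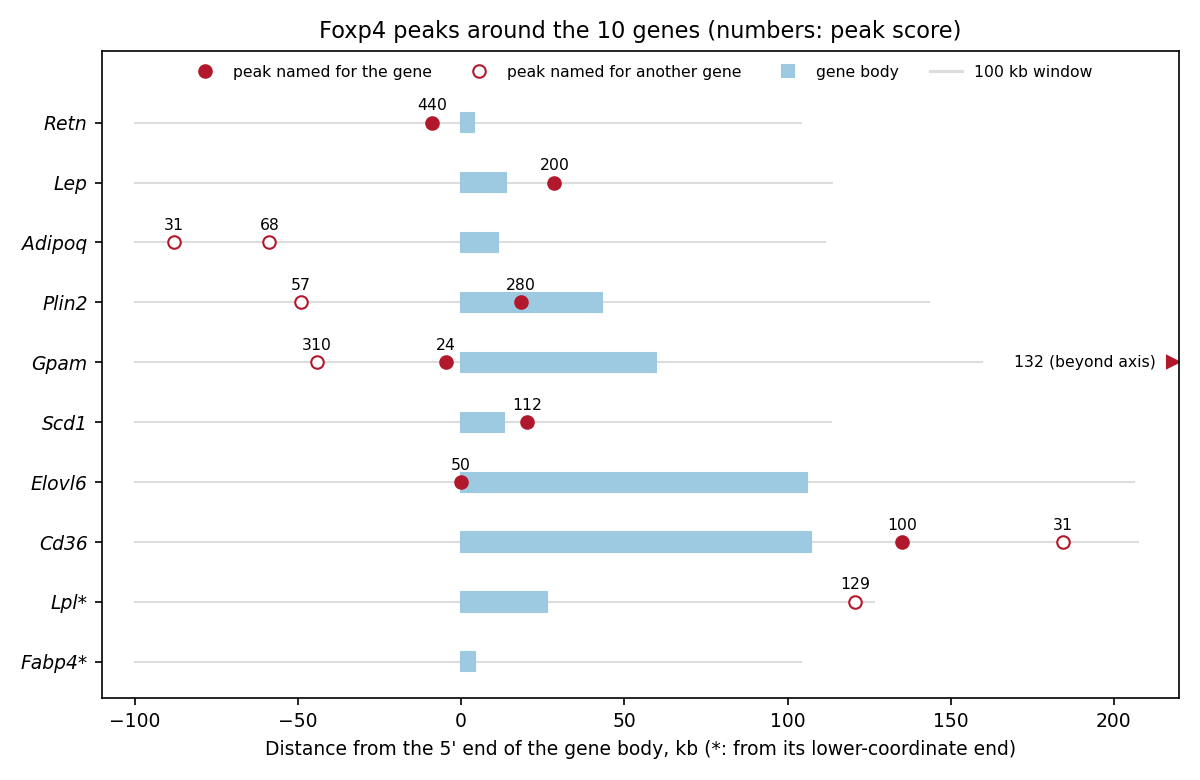
Positions of the 14 peaks relative to each gene, in kb from the 5′ end of the gene body, with the score above each peak and the gene body to scale (for Lpl and Fabp4, from the lower-coordinate end). Filled points are peaks named for the gene and open points peaks named for another gene, and the Gpam peak with a score of 132 lies 309 kb beyond the 3′ end, off the axis.

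Among the adipokine genes, Retn and Lep each had 1 strong distal peak and Adipoq had none of its own. Retn encodes resistin, a secreted hormone that impairs insulin action in mice (chromosome 8, 3655770 to 3659818). Its peak was the highest of the 14, with a score of 440 (rank 61 of 3317, above 98.2% of all peaks), and lay at -8.81 kb from the start site in sequence the file calls intergenic (chr8:3646714-3647200). The gene body closest to this peak was that of Stxbp2, a gene of vesicle fusion, 2.72 kb away, whereas the gap to Retn was 8.57 kb. This region is gene-rich, with 12 other protein-coding genes within 100 kb of Retn, yet the next peak on the chromosome lay 1705 kb from Retn (score 44).

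Lep encodes leptin, the hormone that reports fat stores to the brain (chromosome 6, 29060221 to 29073876). Its peak scored 200 (rank 275) and lay downstream, 28.6 kb past the start site and 14.7 kb past the 3′ end (chr6:29088598-29089000). No other protein-coding gene lies between the peak and Lep, and the closest other one is Rbm28, 34.6 kb from the peak. The next peak around Lep lay 318 kb from the gene.

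Adipoq encodes adiponectin, a hormone that raises insulin sensitivity (chromosome 16, 23146536 to 23157968). Both peaks in its window lay upstream and beyond other genes. The nearer scored 68, lay 58.5 kb from Adipoq on a B1 element (chr16:23087579-23088015), and was named for Eif4a2, an RNA helicase of translation initiation. Eif4a2 and Rfc4, a subunit of the replication clamp loader, lie between it and Adipoq. The farther scored 31, in exon 1 of the kininogen gene Kng1 (chr16:23058307-23058806), 87.7 kb from Adipoq with 3 coding genes between them.

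Plin2, which encodes a perilipin that coats small lipid droplets in many cell types (chromosome 4, 86626910 to 86670217), had a peak of score 280 (rank 151, above 95.4% of all peaks). It lay 18.0 kb past the start site on a (TTTG)n repeat (chr4:86651778-86652275). The file calls this position intergenic, whereas it falls inside the Plin2 gene body of the RefSeq table, which extends farther than the gene model the file used. A weaker peak of score 57 lay 48.9 kb upstream of Plin2 on a MIR element (chr4:86719145-86719512). That one was named for Dennd4c, an activator of Rab10 that takes part in GLUT4 traffic in adipocytes.

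Gpam encodes a mitochondrial enzyme of the first acylation step of triglyceride synthesis (chromosome 19, 55067635 to 55127319, minus strand). It had 3 peaks, the most of the 10 genes, when peaks named for it and peaks within 100 kb were both counted. Within 100 kb alone Gpam had 2, as did Adipoq, Plin2 and Cd36. The peak closest to it had the lowest score of the 14, 24 (rank 3057), and lay at -4.81 kb from the start site (chr19:55131859-55132232). Farther upstream, a peak of score 310 (rank 125) lay 44.0 kb from Gpam on a (TTTG)n repeat (chr19:55171309-55171816). It was named for Tectb, a gene of the inner ear matrix, at -9.32 kb from its start site, and it also fell within 100 kb of Acsl5, which activates fatty acids (gap 80.0 kb). The third was named for Gpam from 341 kb past its start site, outside the 100 kb window, with a score of 132 on a (CAAA)n repeat (chr19:54758138-54758556). No other protein-coding gene lies between that peak and Gpam.

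Of the fatty acid synthesis genes, Scd1 had a distal peak and Elovl6 the promoter peak. Scd1 encodes a desaturase that makes monounsaturated fatty acids (chromosome 19, 44394450 to 44407709). Its peak scored 112 (rank 715) and lay 20.3 kb past the start site, 6.81 kb beyond the 3′ end of the gene (chr19:44387203-44387645). Scd1 lies in a cluster of related desaturase genes, and the same peak was 40.5 kb from Scd4 and 80.3 kb from Scd2. The next peak lay 373 kb from Scd1. Elovl6, which elongates C16 fatty acids (chromosome 3, 129532386 to 129638495), had a peak of score 50 (rank 2123, above 35.8% of all peaks) centred 97 bp before the start site. It was the narrowest of the 14, at 313 bp. A peak within 3 kb of the start site was named for 2.08% of all protein-coding genes.

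Of the 3 fatty acid uptake genes, Cd36 was the 1 with a peak named for it. Cd36, the membrane transporter of long-chain fatty acids (chromosome 5, 17781690 to 17888959, minus strand), was named for a peak of score 100 (rank 886) that lay 82.0 kb past the start site and 27.7 kb past the 3′ end (chr5:17753679-17754034). The body of Sema3c, a secreted semaphorin, was closer to it, at 23.4 kb. A peak of score 31 in intron 12 of Sema3c also lay within the window, 76.8 kb from Cd36 (chr5:17704493-17704878). Lpl, the lipase that frees fatty acids from lipoproteins (chromosome 8, 68880555 to 68906932), had 1 peak near the edge of its window, 93.9 kb beyond its higher-coordinate end, with a score of 129 (chr8:69000818-69001507). The file named it for Atp6v1b2, a subunit of the vacuolar proton pump, and the closest gene body was Slc18a1, a monoamine transporter, at 36.2 kb. With a width of 690 bp it was the widest of the 14. The next peak lay 449 kb from Lpl. Fabp4, a carrier of fatty acids abundant in adipocytes (chromosome 3, 10204342 to 10208616), had its closest peak 1469 kb away, with a score of 24 (chr3:11677517-11677973). Of all protein-coding genes, 18.0% had no peak within 1 Mb.

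The 100 kb limit set the membership of the peaks far from a gene. Just inside it were the Lpl peak at 93.9 kb (score 129) and the Kng1 peak at 87.7 kb from Adipoq (31). Just outside were a peak 111 kb from Cd36, named for the taste transducin gene Gnat3 (51), and one 117 kb from Adipoq, named for Kng2 (67).

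The 14 scores ran from 24 to 440, and 60 peaks of the list scored higher than the highest of them. Their median was 106 with quartiles of 51.8 and 183, against a median of 65 and quartiles of 41 and 104 over all peaks, and 9 of the 14 were above the overall median. The 8 peaks named for one of the genes had a median score of 122 (24 to 440), and the 6 named for other genes one of 62.5 (31 to 310). In order, Retn (440), the Tectb-named peak near Gpam (310), Plin2 (280) and Lep (200) stood highest, followed by 4 peaks between 100 and 132. The other 6 scored 24 to 68. With 1 library, the counting error of a score is unknown, and neighbours in this order cannot be ranked firmly.

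**Figure D2:**
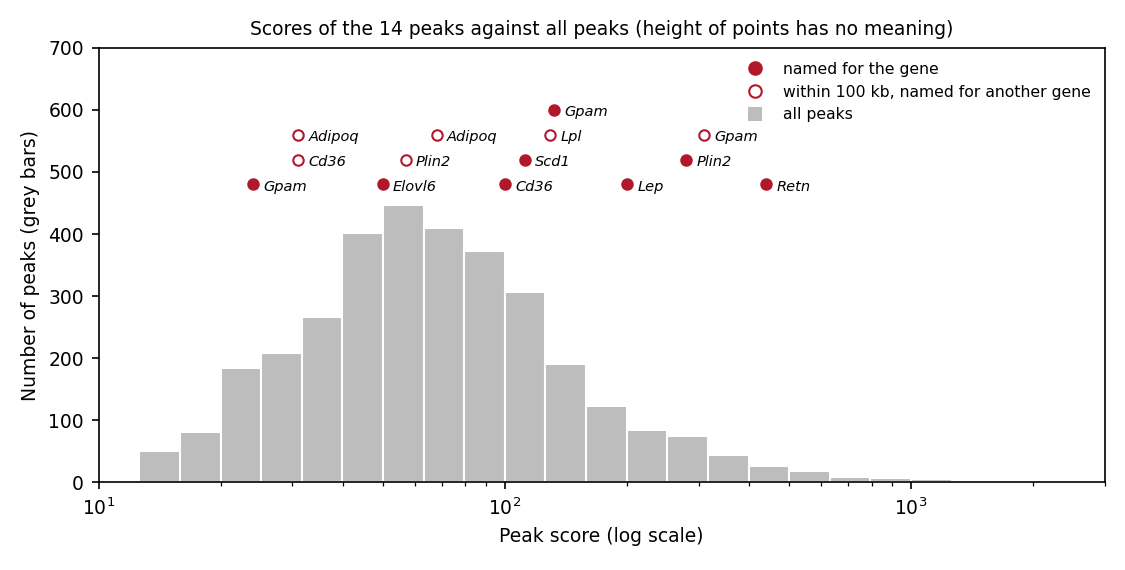
Scores of the 14 peaks (points, labelled by gene, log axis; the height of a point has no meaning) above the distribution of all 3317 peak scores (grey bars, number of peaks per score bin). Filled points are peaks named for the gene, and 9 of the 14 points lie above the overall median of 65.

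Most of the peaks were distal, as were most peaks of the list: 2 of the 14 (14.3%) lay within 3 kb of a start site, against 16.5% of all peaks. The file called 11 of the 14 intergenic (78.6%, against 50.5% of all peaks) and 1 an intron (7.14%, against 38.3%). It called 1 a promoter (7.14%, against 8.38%) and 1 an exon (7.14%, against 0.513%), the Kng1 peak. Of the 8 peaks named for one of the genes, 6 lay 3 to 100 kb from the start site, as did 62.2% of all peaks, and 5 lay past it, as did 53.0% of all peaks. Their median distance from the start site was 19.2 kb, against 30.3 kb over all peaks. For 6 of these 8 the named gene was also the closest protein-coding gene body, and the exceptions were Retn and Cd36. How often this held over all peaks was not counted.

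Tandem repeats of a T run and a G lay under 3 of the 14 peaks, those of scores 310, 280 and 132 at Gpam and Plin2. Such repeats, with 2 to 5 T and 1 G on either strand, were annotated at 21.4% of the 14 peaks and 6.39% of all peaks. Over all peaks the median score was 101.5 on these repeats and 62 elsewhere. The 11 peaks of the 10 genes that lay off them had a median score of 68, against 106 for the 14. Leaving out any 3 peaks that score above 106 gives 68 too, so the drop alone says nothing about the repeats. The part of the repeats in these scores was not tested. The Retn and Lep peaks had no repeat annotation.

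By number of peaks, 5 of the 10 genes had 1 peak within 100 kb, 4 had 2 (Adipoq, Plin2, Gpam and Cd36) and Fabp4 had 0. Over all protein-coding genes 19.4% had 1, 5.62% had 2 and 2.63% had 3 or more. In the windows of the 10 genes, 2.39 Mb in all, there were 5.44 peaks per Mb, against 1.70 over the windows of all autosomal protein-coding genes. Because the genes were picked for having peaks, these densities restate the choice. The 10 genes were of ordinary length (median 20.0 kb, against 17.2 kb over all), and among the 15392 protein-coding genes within their range of lengths 28.9% had a peak within 100 kb and 8.7% were named as nearest. With narrower windows 2 of the 10 had a peak in the gene body (Elovl6 and Plin2), 6 within 20 kb and 7 within 50 kb, against 5.72%, 11.1% and 18.1% of all protein-coding genes. Within 200 kb it was 9, against 41.7%. With peaks that scored at least 30, 7 of the 10 were named and 9 had a peak within 100 kb, against 8.07% and 24.7% of all protein-coding genes. With peaks at or above the median score 6 were named and 8 had one within 100 kb, against 5.15% and 16.6%.

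**Figure D3:**
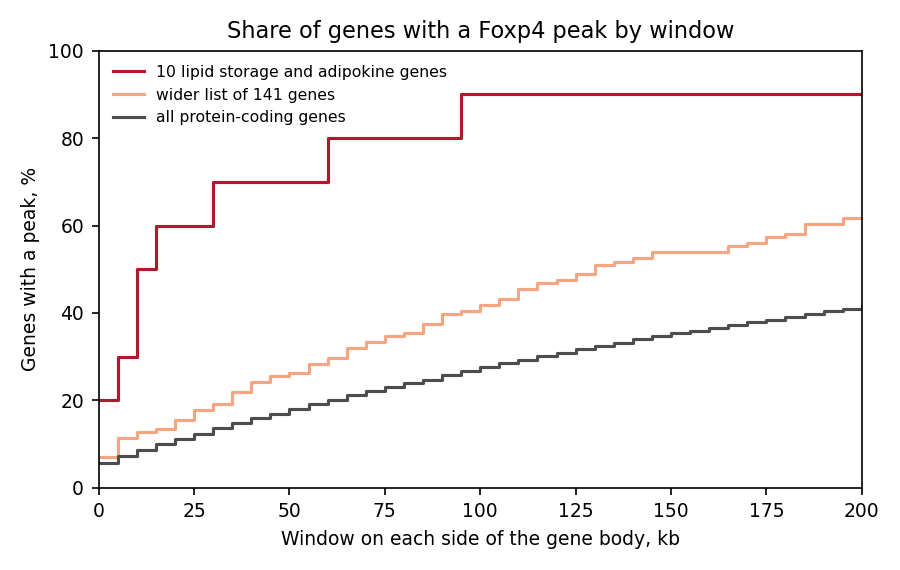
Share of genes, in percent, with a peak in the gene body or within a given distance of it in kb, for the 10 genes, the wider list of 141 genes and all protein-coding genes. At 100 kb the shares are 9 of 10, 41.8% and 27.7%.

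The wider set of lipid storage and adipokine genes had peaks at a smaller share of its members than these 10. Because the 10 were picked for having peaks, this difference restates the choice. The list held 141 other genes in 7 roles, chosen from general knowledge, with earlier results of these data known. Of them 21 (14.9%) were named as nearest gene of a peak, against 9.11% of all protein-coding genes, and 59 (41.8%) had one within 100 kb, against 27.7%. Genes in one locus share peaks, as Scd1, Scd2 and Scd4 do, so these counts are not of independent sites.

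Among adipokine genes, 6 of 31 were named (19.4%, against 9.11% of all protein-coding genes). They were Il6 and Ccl2 (a cytokine and a chemokine), Agt (angiotensinogen), C1qtnf7, Dpp4 and Fst (an activin antagonist). Il6 had a promoter peak of score 65, at -186 bp, and a second of score 140 in intron 2. Its promoter window, with that of Elovl6, made up the 2 that lay wholly inside a peak among 119 genes of the list with a window, the 10 included. Over all promoter windows, counted by window and not by gene, 65 of 32851 (0.198%) lay wholly inside a peak. The other named adipokine genes had peaks of score 104 (C1qtnf7), 92 (Agt, at -2.30 kb), 47 (Dpp4), 38 (Ccl2) and 25 (Fst). Nampt and Metrnl had peaks within 20 kb, of scores 26 and 48, that were named for other genes. Of the 11 adipokine receptor genes 1 was named (9.09%, close to the 9.11% of all genes), the interleukin 6 receptor gene Il6ra (score 123, intron 1). Stra6 lay 5.17 kb from a peak at the promoter of Islr (68).

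For fatty acid synthesis and desaturation, 6 of 31 genes were named (19.4%, against 9.11% of all protein-coding genes). Elovl5, an elongase of polyunsaturated fatty acids, and Fads1, a desaturase, had promoter peaks of scores 31 and 51. Fads2 and Fads3, in the same gene cluster as Fads1, were named for peaks of 101 and 37, and Pgd, of the pentose phosphate pathway, for one of 138 at -5.05 kb from its start site. Insig1, a sterol-dependent brake on lipid synthesis, was named for a peak of 19. Of the triglyceride synthesis genes 4 of 21 were named, against 9.11% of all protein-coding genes. They were Mogat2 (179, intron 2), Lclat1 (77), Lpin2 (68 and 19) and Agpat4 (19).

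The lipid droplet list had 3 of 16 genes named (18.8%, against 9.11% of all protein-coding genes). These were Cavin1 (82), Cav2 (52) and Rab18 (43), all from peaks outside the gene bodies. Cavin1 and Cav2 build caveolae, the membrane pits that are dense in adipocytes. Fitm1, which promotes droplet formation, lay 14.8 kb from a peak of 62 at the promoter of Dcaf11. In fatty acid uptake 1 of 19 was named (5.26%, against 9.11% of all genes), the lipoprotein receptor gene Lrp1. It had peaks of 69 and 34 in intron 6 and of 55 at its promoter, at -781 bp. Acsl1, which activates fatty acids, lay 15.7 kb from a peak of 228 at the promoter of Cenpu. None of the 12 lipolysis genes was named, too few genes to tell this from the 9.11% of all protein-coding genes. Pnpla2, which encodes the lipase ATGL, lay 15.5 kb from a peak of score 593 (rank 30 of 3317) in intron 1 of Tspan4, 180 bp from the start site to which the file assigns it.

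**Figure D4:**
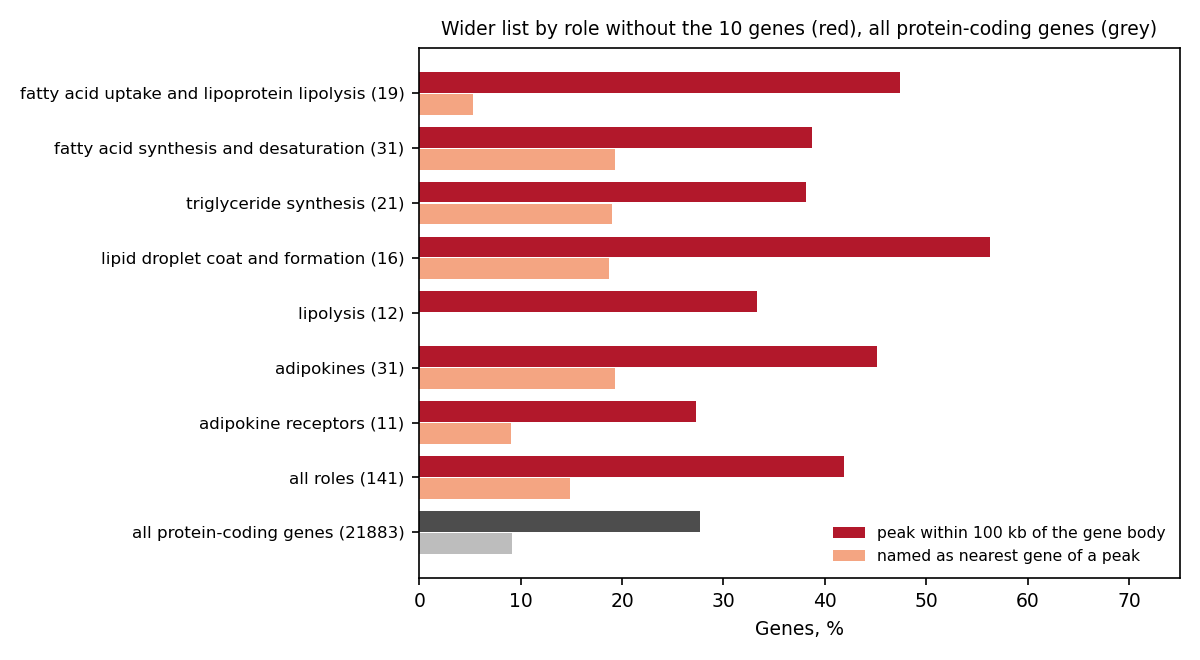
Share of genes, in percent, with a peak within 100 kb of the gene body (dark bars) and named as nearest gene of a peak (light bars) in each role of the wider list without the 10 genes (red, number of genes in brackets) and over all protein-coding genes (grey). Shares within 100 kb run from 27.3% for adipokine receptors to 56.3% for lipid droplet genes, against 27.7% over all genes.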

How the data were processed

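One peak table of the Foxp4 ChIP library was used. The authors deposited for each mm10 peak a whole-number score, nearest start site, distance and annotation. Per the file headers, HOMER (annotatePeaks.pl) annotated a narrowPeak list. The submitters' processing notes name MACS2, Bowtie2, SAMtools, Picard and deepTools 3.3.0 without roles. Calling settings and the use of the input are not given in the sources used here. A score can mix enrichment with depth and width, and reads with several alignments could change which repeats appear as peaks.

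Every one of the 3317 peaks was used, and 1 line that held no peak was dropped. Gene bodies came from a RefSeq table of GRCm38.p6, which matched 2459 of 2462 nearest genes by gene number and 151 of 153 list genes by symbol. Strand was taken from the promoter table or from start sites implied by the file's distances. A peak counted when any base lay in the window. The genes and lists were chosen with earlier results of these data known. Text names all 10 genes with every peak, and wider-list genes that were named as nearest or had a peak within 20 kb. The code that counts peaks in windows was checked for correct counting on peaks placed at known distances, which is no test of the results. With 1 library there were no tests between groups. Alternatives covered windows, score limits and the position taken for a peak. Python 3.11.15 and pandas 2.3.3 were used.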

Additional observations from a re-analysis of the deposited data

How the results depend on the processing

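Over 26 alternatives, 19 left the count or median score within 1.5 times its reported value, and 7 did not. The 10 genes named as nearest numbered 7, and 6 with peaks at or above the median score. Those with a peak within 100 kb numbered 9, and 8 with that score limit, 6 within 20 kb and 7 within 50 kb. The 14 peaks fell to 9 at or above the median score and to 8 with a 20 kb window. Of the wider list, 11 genes in place of 21 were named at or above the median score. Over all protein-coding genes that limit took the named share from 9.11% to 5.15%. Genes of the wider list with a peak within 100 kb numbered 59, and 38 with that score limit, 22 within 20 kb and 37 within 50 kb. The shares of all protein-coding genes were 27.7%, 16.6%, 11.1% and 18.1% in the same order. The median score of 106 was 84 with a 200 kb window. It moved most, to 68, without the 3 peaks on repeats of a T run and a G. That alternative was chosen after seeing the data, and leaving out any 3 peaks above 106 gives 68 too. No paired analysis was possible because there was 1 ChIP library and no groups were compared. Read depth is unknown and limits every statement on the absence of a peak.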

Other observations

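Which gene a peak was given to depended on the way of naming it for 2 of the 8 peaks named for one of the 10 genes. The share over all peaks was not counted, so whether this is usual is unknown. By nearest start site, as in the file, the peak of score 440 belonged to Retn and that of 100 to Cd36. By nearest protein-coding gene body they belonged to Stxbp2, 2.72 kb away, and Sema3c, 23.4 kb away. The 14 peaks had from 1 to 13 protein-coding genes within 100 kb, where any lay in that window, with a median of 3. No contact between a peak and a gene was measured.

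The strongest peak within 20 kb of a gene of the wider list scored 593, above the highest score of the 10 genes (440). It lay 15.5 kb from Pnpla2, in intron 1 of Tspan4, the gene to which the file gave it.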
